A study of Homo sapiens with 8 samples.

Results

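The stress granule core genes described here are 10 genes taken by name: G3BP1, G3BP2, CAPRIN1, USP10, TIA1, TIAL1, ATXN2, ATXN2L, FMR1 and FXR1. They were 10 of the 61544 entries in each count table and 10 of the 16499 genes tested, so all 10 passed the filter on low counts. Each had a single entry, and the rule names the genes and uses no measured value. The RNA was measured, not the proteins or the granules.

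Stress granules are cytoplasmic condensates of untranslated mRNA, stalled initiation complexes and RNA-binding proteins that form when translation initiation is blocked, most often through phosphorylation of eIF2α. G3BP1 and G3BP2 nucleate them, CAPRIN1 promotes and USP10 opposes that condensation by binding the same region of G3BP, and TIA1, TIAL1, the ataxin-2 proteins and the FMR1 family are further RNA-binding components. P-bodies are separate condensates that hold repressed mRNA and decay factors, they exchange contents with stress granules, and the RNA helicase DDX6 is needed to form them.

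RNA was sequenced from HEL and MOLM-13 cells, established human acute myeloid leukaemia lines with erythroid and megakaryocytic features in HEL and monocytic features with a KMT2A fusion in MOLM-13. In each line, cells received a lentivirus encoding a control shRNA (labelled wild type) or an shRNA against DDX6 (labelled DDX6 knockdown), and puromycin selection was applied to all 4 groups. Each group held 2 libraries, 8 in all, and the series asked about mRNA storage in P-bodies of myeloid leukaemia cells. The labels give neither the time after transduction nor the sequence of the hairpin, and no rescue or further hairpin was analysed here. Nor do they state that a group's libraries were separate cultures, so each p-value reflects the spread among these libraries alone, which may be technical. The fit as reported shares that spread across genes and across both lines.

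Libraries held 10719829 to 12093544 counts in HEL and 7888318 to 8174432 in MOLM-13, and the 10 genes together took 0.136% to 0.195% of them. DDX6 itself was 178 ± 2.24 CPM (SD, n = 2) in HEL control libraries and 95.8 ± 1.43 with the DDX6 shRNA, a log2 fold change of -0.90 ± 0.07 (SE), where CPM is the library-size-scaled count (TMM). In MOLM-13 it was 124 ± 2.99 and 71.0 ± 4.47 CPM, a log2 fold change of -0.80 ± 0.08. The markers chosen for each line followed its label when summed. The 6 HEL markers came to 1990 to 2090 CPM of total counts in HEL libraries and 8.44 to 13.3 in MOLM-13. The 6 MOLM-13 markers came to 4290 to 4680 in MOLM-13 and 169 to 193 in HEL. Among them MEIS1 differed little between lines, at 40.8 and 39.9 CPM in HEL control and shRNA libraries and 51.3 and 45.9 in MOLM-13. With the shRNA in MOLM-13, MPO went from 1420 to 914 CPM and LYZ from 2360 to 2820. Of markers of other cell types, the 4 lymphoid genes summed to 7.10 to 7.99 CPM in MOLM-13 control libraries and 40.8 to 47.9 with the DDX6 shRNA, nearly all of it CD3D, while CD3E had 1 count in all over the MOLM-13 libraries. The 4 fibroblast and endothelial genes, nearly all PECAM1, which myeloid cells also express, summed to 256 to 263 CPM and 490 to 521 CPM in the same groups and to 220 to 231 CPM and 267 to 273 CPM in HEL, and their part in the results below, like that of the lymphoid genes, was not tested. The MOLM-13 control libraries were further apart than the other pairs of libraries, with a chi-square per degree of freedom over genes of 3.52 against 1.45 to 1.73, and replicate 1 was above replicate 2 for 8 of the 10 genes.

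The genes lie on 9 chromosomes of GRCh38 and all 10 are annotated as protein-coding. G3BP1 spans chr5:151771045-151812785 (+ strand), G3BP2 chr4:75642782-75724525 (-), CAPRIN1 chr11:34051683-34101156 (+) and USP10 chr16:84699978-84779922 (+). TIA1 spans chr2:70209444-70248660 (-), TIAL1 chr10:119571802-119597029 (-), ATXN2 chr12:111443485-111599676 (-) and ATXN2L chr16:28823035-28837237 (+). FMR1 spans chrX:147911951-147951125 (+) and FXR1 chr3:180868141-180982753 (+). Exons of other genes cover 12.5% of the ATXN2L exon bases, all on the opposite strand, and 3.19% of those of TIA1. The strand setting of the counting is not given in the sources used here, so reads from such overlaps cannot be told apart. By its longest coding transcript, ATXN2L was also the most GC-rich of the 10, at 60.3% GC. The other 9 ran from 36.6% to 52.2%, and the median over tested genes with a value was 48.9%.

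CAPRIN1, TIAL1 and ATXN2L were the 3 genes called in the same direction in both lines, and their promoters are shown for that reason. Each window runs from 250 bases before to 50 bases after the annotated start, read 5′ to 3′ along the gene, from RefSeq on GRCh38.p14. The windows are chr11:34051481-34051780 (+) for CAPRIN1, chr10:119596915-119597214 (-) for TIAL1 and chr16:28822749-28823048 (+) for ATXN2L. Capitals mark matches, on either strand, to the GC box GGGCGG or the ETS motif CCGGAAG.
CAPRIN1: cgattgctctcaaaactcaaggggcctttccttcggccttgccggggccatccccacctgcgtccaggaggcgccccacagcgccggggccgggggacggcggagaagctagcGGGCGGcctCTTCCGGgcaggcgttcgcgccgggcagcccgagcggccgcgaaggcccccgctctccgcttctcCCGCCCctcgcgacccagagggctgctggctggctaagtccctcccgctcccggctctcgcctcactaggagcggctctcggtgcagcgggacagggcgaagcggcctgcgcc
TIAL1: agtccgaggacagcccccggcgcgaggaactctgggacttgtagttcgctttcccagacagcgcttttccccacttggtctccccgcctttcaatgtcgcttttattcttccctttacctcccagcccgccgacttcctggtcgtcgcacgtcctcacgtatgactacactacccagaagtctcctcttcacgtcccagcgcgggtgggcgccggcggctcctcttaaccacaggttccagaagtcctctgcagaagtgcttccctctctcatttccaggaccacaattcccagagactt
ATXN2L: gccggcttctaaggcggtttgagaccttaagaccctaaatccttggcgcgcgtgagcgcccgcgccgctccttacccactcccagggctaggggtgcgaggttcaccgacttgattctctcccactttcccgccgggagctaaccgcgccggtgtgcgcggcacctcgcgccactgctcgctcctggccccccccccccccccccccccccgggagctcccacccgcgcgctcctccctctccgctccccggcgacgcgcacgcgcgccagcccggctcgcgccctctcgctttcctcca
The CAPRIN1 window held 2 GC box matches and 1 ETS match, which do not overlap. The TIAL1 and ATXN2L windows held no match to these motifs or to CCAAT, CGCATGCG (NRF1), TATAAA or CACGTG (E box), which were also searched on both strands. Over the 35116 promoter windows of the same table, 45% held the GC box, 34.6% CCAAT, 10.3% the ETS motif, 2.02% the NRF1 motif, 11.5% TATAAA and 7.26% the E box. GC content was 74% in the CAPRIN1 window, 72.7% in the ATXN2L window and 58% in the TIAL1 window, against a median of 58.7%, and CpG dinucleotides numbered 35, 37 and 20 against a median of 14.

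When DDX6 was reduced, the 10 mRNAs moved in different directions and by small amounts. CAPRIN1 rose in both lines, to 1.16 times its control level in HEL and 1.19 times in MOLM-13. ATXN2L and TIAL1 fell in both lines, ATXN2L to 0.743 and 0.846 times control and TIAL1 to 0.865 and 0.860 times. FMR1 rose and TIA1 fell in HEL, and G3BP2 rose in MOLM-13. G3BP1, USP10, ATXN2 and FXR1 passed the test in neither line.

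A gene was called at a Benjamini-Hochberg adjusted p under 0.05 over all 16499 genes in edgeR's quasi-likelihood test. In HEL, 2 of the 10 were called higher, where 20.7% of all tested genes were, and 3 lower, where 14.1% were. In MOLM-13, 2 were called higher against 18.1% of all genes, and 2 lower against 14.3%. In both lines, 1 was called higher against 8.15% of all genes, and 2 lower against 5.43%. Since abundant genes are called more often, the shares among the 6804 genes with a mean of at least that of FMR1, the lowest of the 10 at 31.0 CPM, were 46.3% called in either direction in HEL and 43.1% in MOLM-13 (34.8% and 32.4% over all tested genes). The counts of called core genes, 5 of 10 and 4 of 10, lie near that background. The median absolute log2 fold change of the 10 was 0.18 in HEL and 0.09 in MOLM-13, against 0.18 and 0.19 over those 6804 genes and 0.25 and 0.28 over all tested genes. The signed median was -0.01 in HEL and -0.02 in MOLM-13, against 0.03 and 0.00 over all tested genes. In these bulk samples, less RNA per cell and fewer cells that carry it cannot be told apart.

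**Figure D1:**
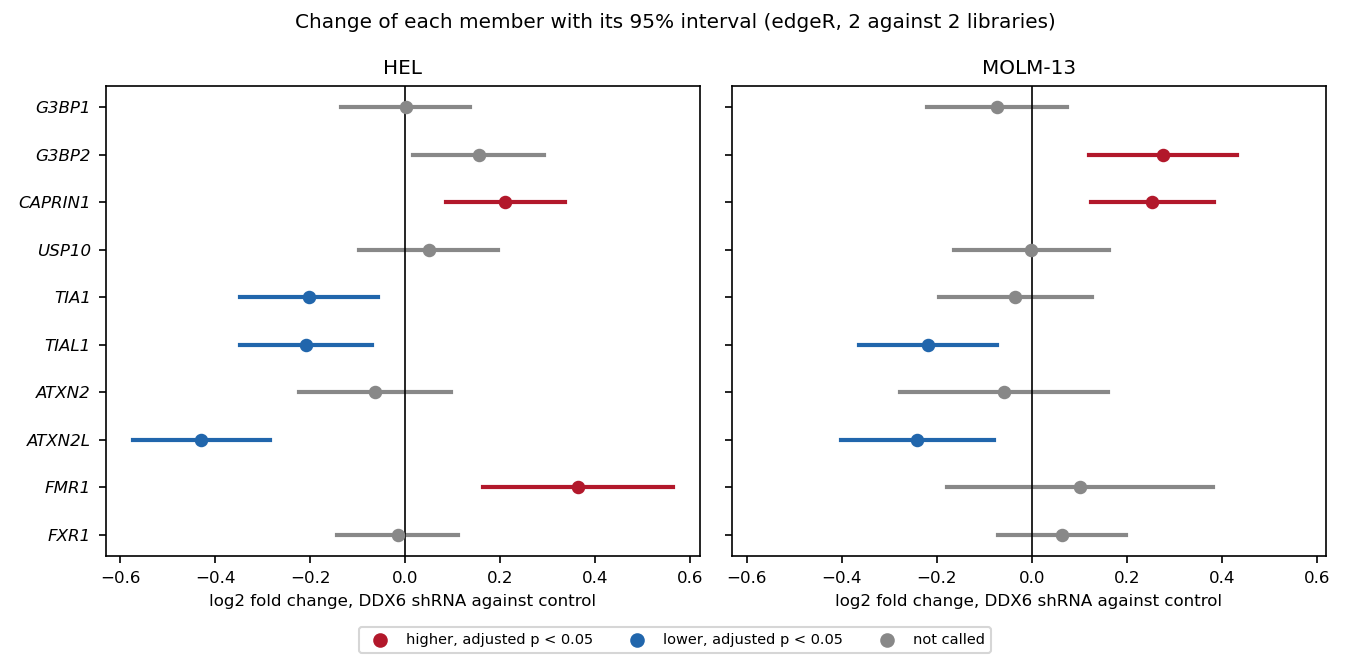
Log2 fold change of each core gene with the DDX6 shRNA against control (horizontal axis) in HEL (left) and MOLM-13 (right), with points for the edgeR estimate, bars for its 95% interval and colour for the call. CAPRIN1 lies above 0 and TIAL1 and ATXN2L lie below 0 in both panels, with the lowest value at -0.43 for ATXN2L in HEL and the highest at 0.36 for FMR1 in HEL.

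G3BP1, the nucleator whose loss with G3BP2 stops stress granules from forming under most stresses, was at 259 and 252 CPM in the HEL control libraries and 261 and 249.5 CPM with the DDX6 shRNA. MOLM-13 libraries held 209.6 and 177 CPM in control libraries and 186 and 182 CPM with the shRNA. The groups overlapped in both lines. The log2 fold change was 0.00 with a 95% interval from -0.14 to 0.14 in HEL, and -0.07 with an interval from -0.22 to 0.07 in MOLM-13. The edgeR adjusted p was 1 in HEL and 0.484 in MOLM-13. Without MOLM-13 control replicate 2, G3BP1 was called lower there, at -0.18 (edgeR adjusted p = 0.0215).

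G3BP2, the paralog of G3BP1, was at 249 and 236 CPM in HEL control libraries and 277 and 263 CPM with the shRNA. Every HEL shRNA library was above every control library, yet the log2 fold change of 0.15 ± 0.07 did not pass (edgeR adjusted p = 0.0753, 95% interval 0.02 to 0.29). It passed with HEL fitted alone (0.12, edgeR adjusted p = 0.0204) and without either MOLM-13 control library (adjusted p = 0.0310 and 0.0315). In MOLM-13, G3BP2 was at 136 and 114 CPM in control libraries and 148 and 155 CPM with the shRNA. Both shRNA libraries there were above both controls, and the log2 fold change of 0.28 ± 0.08 passed (edgeR adjusted p = 0.00459). That call was lost without MOLM-13 control replicate 2 (edgeR adjusted p = 0.0693) and without shRNA replicate 2 (0.0588).

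CAPRIN1, a G3BP-binding RNA-binding protein that promotes condensation, was at 378 and 367 CPM in HEL control libraries and 438 and 425 CPM with the shRNA. In MOLM-13 it was at 397 and 353 CPM in control libraries and 433 and 460.4 CPM with the shRNA. In both lines each shRNA library exceeded each control library. The log2 fold changes were 0.21 ± 0.06 in HEL (edgeR adjusted p = 0.00677) and 0.25 ± 0.06 in MOLM-13 (0.00160). The MOLM-13 call held under every alternative run, between 0.18 and 0.35. The HEL call was lost without control replicate 2 (edgeR adjusted p = 0.124) and without shRNA replicate 1 (0.0921).

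USP10, a deubiquitinase that binds G3BP in competition with CAPRIN1, was at 134 and 131 CPM in HEL control libraries and 139 and 135 CPM with the shRNA. MOLM-13 control libraries held 118 and 99.6 CPM and shRNA libraries 105 and 113 CPM. The HEL groups did not overlap but lay within a few percent of each other, and the MOLM-13 groups overlapped. The 95% interval of its log2 fold change ran from -0.10 to 0.20 in HEL and from -0.16 to 0.16 in MOLM-13, and neither passed (edgeR adjusted p = 0.655 and 1). Within the G3BP-binding genes, CAPRIN1 therefore passed in both lines and USP10 in neither; the difference between the genes was not tested.

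TIA1 and TIAL1 are paralogous RNA-binding proteins with a prion-like domain that repress translation of bound mRNAs and also act in splicing. TIAL1 was at 135 and 136 CPM in HEL control libraries and 115 and 119.6 CPM with the shRNA, and in MOLM-13 at 163 and 159 CPM against 142 and 135 CPM. Each shRNA library was below each control library in both lines, and the log2 fold changes were close, at -0.21 ± 0.07 in HEL and -0.22 ± 0.07 in MOLM-13 (edgeR adjusted p = 0.0155 in each). The HEL call was lost on leaving out any of its 4 libraries (edgeR adjusted p from 0.0634 to 0.166), and the MOLM-13 call without shRNA replicate 1 (0.0524) or replicate 2 (0.181).

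TIA1 was at 135 and 134 CPM in HEL control libraries and 119.7 and 114 CPM with the shRNA, with no overlap, and the log2 fold change of -0.20 ± 0.07 passed (edgeR adjusted p = 0.0242). In MOLM-13 it was at 110.4 and 98.6 CPM in control libraries and 96.8 and 107 CPM with the shRNA. Those groups overlapped, and the log2 fold change of -0.03 did not pass (edgeR adjusted p = 0.797, 95% interval -0.20 to 0.13). The HEL call was lost in DESeq2 (adjusted p = 0.0764) and on leaving out any of the 4 HEL libraries (edgeR adjusted p from 0.0639 to 0.217).

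ATXN2L, a paralog of ataxin-2 and a stress granule component, showed the largest fall among the 10 in HEL. It was at 174 and 199.7 CPM in HEL control libraries and 134 and 144 CPM with the shRNA, and in MOLM-13 at 120.2 and 131 CPM against 107 and 106 CPM. The groups were apart in both lines. The log2 fold change was -0.43 ± 0.07 in HEL (edgeR adjusted p = 5.17e-06), which was called under every alternative run, between -0.52 and -0.33. In MOLM-13 it was -0.24 ± 0.08 (edgeR adjusted p = 0.0168), a call lost in DESeq2 (adjusted p = 0.0686) and without control replicate 2 (edgeR adjusted p = 0.128), shRNA replicate 1 (0.124) or shRNA replicate 2 (0.111).

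ATXN2, the polyglutamine protein ataxin-2, which binds poly(A)-binding protein and DDX6, was at 70.2 and 81.3 CPM in HEL control libraries and 73.4 and 71.5 CPM with the shRNA. In MOLM-13 it was at 34.0 and 35.7 CPM in control libraries and 33.3 and 33.6 CPM with the shRNA. The HEL groups overlapped. The MOLM-13 groups were apart but by under 1 CPM. The log2 fold changes were -0.06 ± 0.08 and -0.06 ± 0.11 and did not pass (edgeR adjusted p = 0.588 and 0.738), with 95% intervals from -0.22 to 0.10 in HEL and from -0.28 to 0.16 in MOLM-13.

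FMR1 encodes FMRP, an RNA-binding repressor of translation, and FXR1 encodes its autosomal homolog. FMR1 was at 37.4 and 34.0 CPM in HEL control libraries and 43.3 and 48.6 CPM with the shRNA, from 406 to 537 counts. Both shRNA libraries lay above both controls, and the log2 fold change of 0.36 ± 0.10, or 1.29-fold, passed (edgeR adjusted p = 0.00330). The call was lost in DESeq2 (adjusted p = 0.0570) and without HEL control replicate 2 (edgeR adjusted p = 0.106) or shRNA replicate 2 (0.0785). In MOLM-13, FMR1 was at 22.8 and 18.02 CPM in control libraries and 24.5 and 19.3 CPM with the shRNA, from 143 to 186 counts. These groups overlapped, and the 95% interval of the log2 fold change, -0.18 to 0.38, holds the HEL value (estimate 0.10, edgeR adjusted p = 0.633).

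FXR1 was at 292 and 281 CPM in HEL control libraries and 287 and 279 CPM with the shRNA, and in MOLM-13 at 230 and 217 CPM against 226 and 241 CPM. The groups overlapped in both lines. The log2 fold changes of -0.02 ± 0.06 and 0.06 ± 0.07 did not pass (edgeR adjusted p = 0.891 and 0.518), with 95% intervals from -0.14 to 0.11 in HEL and from -0.07 to 0.20 in MOLM-13.

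**Figure D2:**
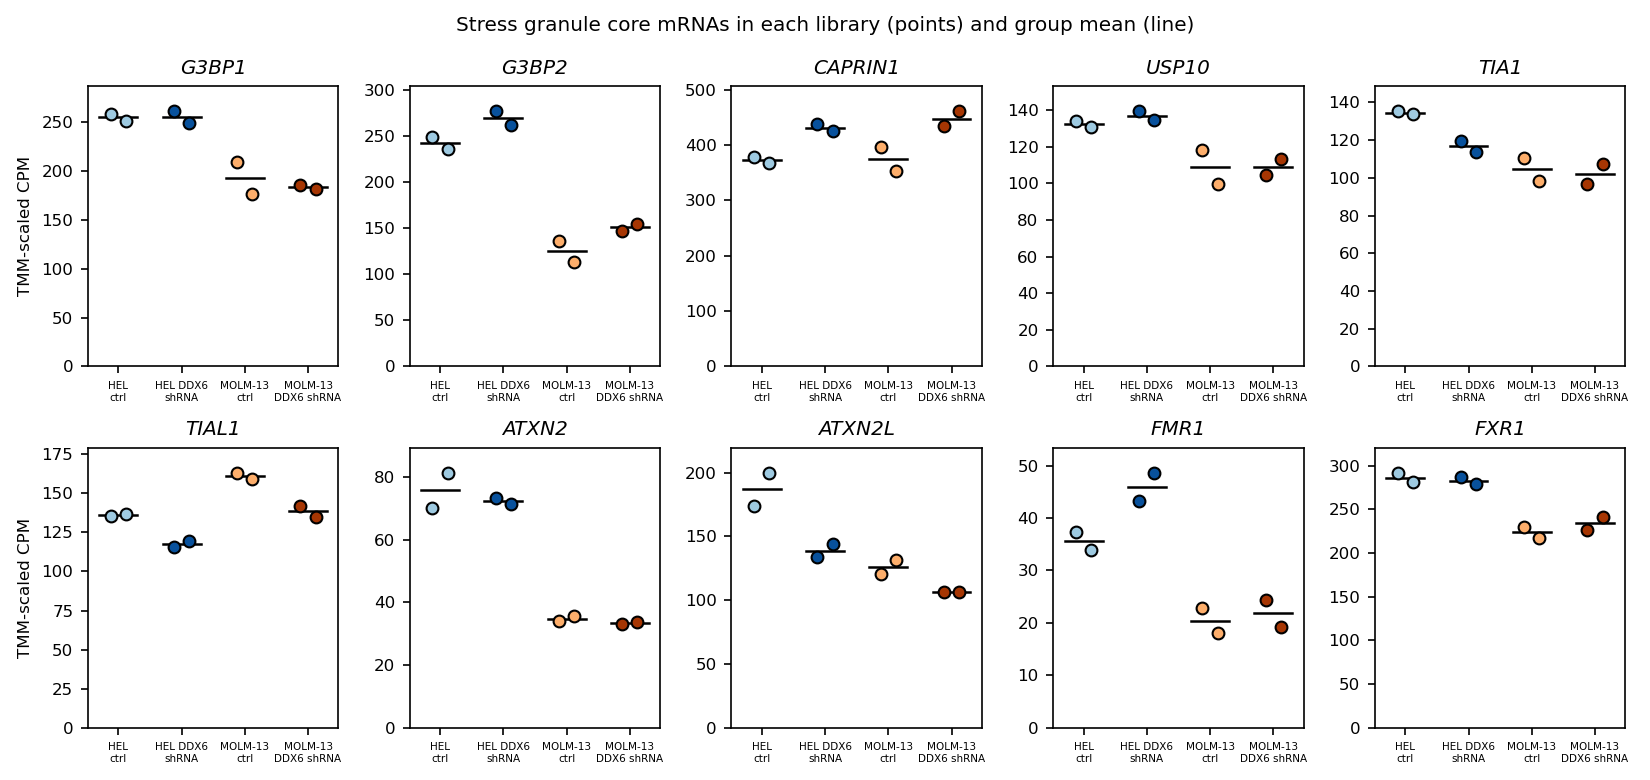
TMM-scaled CPM (vertical axis, from 0) of each core gene in the 8 libraries, with points for libraries and a line for the mean of the 2 libraries of a group. ATXN2L and TIAL1 points with the DDX6 shRNA lie below their controls in both lines, CAPRIN1 points lie above, and G3BP1 points overlap.

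The groups did not overlap for 4 core genes higher and 3 lower in HEL, where 37.5% and 29.9% of all tested genes did the same, and for 2 higher and 3 lower in MOLM-13, against 31% and 29.2%. These counts take in genes whose groups were apart by little and that did not pass the test: G3BP2 and USP10 in HEL and ATXN2 in MOLM-13.

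The next comparison asked whether the change with the DDX6 shRNA differed between the lines, with the HEL change subtracted from the MOLM-13 change. None of the 10 core genes passed edgeR's test of that difference, 0 at an adjusted p under 0.05 and 0 at an unadjusted p under 0.05, and DESeq2 called 0; of all tested genes 15.1% passed in edgeR, 7.53% with a positive and 7.59% with a negative difference. FMR1 and TIA1 in HEL and G3BP2 in MOLM-13 were thus called in 1 line without a difference between lines that passed. The differences and their 95% intervals were -0.26 (-0.61 to 0.08) for FMR1, 0.17 (-0.05 to 0.39) for TIA1 and 0.12 (-0.09 to 0.33) for G3BP2. ATXN2L had the smallest p, with a difference of 0.19 ± 0.11 (edgeR unadjusted p = 0.0866, adjusted p = 0.262). For CAPRIN1 the difference was 0.04 (-0.14 to 0.22) and for TIAL1 -0.01 (-0.21 to 0.19). Leaving out 1 MOLM-13 control library moved some of these past the threshold: without replicate 1, G3BP2 (0.30, edgeR adjusted p = 0.00686) and TIA1 (0.30, 0.0198), and without replicate 2, ATXN2L (0.30, 0.0240).

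The control libraries of the lines were then compared to place the starting levels. Of the 10 core genes, 8 were higher in HEL, where 40.8% of all tested genes were, 1 was lower, where 40.4% were, and 1 was not called; 81.2% of all tested genes were called in either direction. ATXN2 differed most, at 75.7 ± 7.89 CPM (SD, n = 2) in HEL and 34.8 ± 1.18 in MOLM-13, a log2 difference of 1.119 ± 0.09 (edgeR adjusted p = 5.50e-15). G3BP2 was higher in HEL by 0.96 ± 0.07 and FMR1 by 0.81 ± 0.12, and ATXN2L, G3BP1, TIA1, FXR1 and USP10 by 0.57 down to 0.28, all 7 past the threshold. TIAL1 was the exception, lower in HEL by a log2 difference of -0.25 ± 0.07 (edgeR adjusted p = 0.00140). CAPRIN1 was at 373 ± 7.98 CPM in HEL and 375 ± 31.5 in MOLM-13, with overlapping libraries and a difference of -0.01 ± 0.06 (edgeR adjusted p = 0.907). It passed with upper-quartile scaling (-0.13, adjusted p = 0.0468) and, in the other direction, without MOLM-13 control replicate 1 (0.13, 0.0272). The lines come from separate tables and any batch goes with the line, so line and batch cannot be told apart here.

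Levels of different genes were compared as CPM per kb of annotated exon. CAPRIN1 was the most abundant core mRNA in all 4 groups, at 48.5 and 56.1 CPM per kb in HEL control and shRNA libraries and 48.7 and 58.1 in MOLM-13. ATXN2 and FMR1 were the 2 lowest in all 4 groups, between 2.02 and 5.45 CPM per kb in single libraries. In HEL control libraries the order was CAPRIN1, G3BP2, ATXN2L, USP10, FXR1, G3BP1, TIA1, TIAL1, ATXN2 and FMR1, and of the neighbours in that order only the libraries of G3BP1 and TIA1 overlapped. In MOLM-13 control libraries CAPRIN1 stood apart, and each neighbour from TIAL1 through USP10, ATXN2L, FXR1, G3BP2 and TIA1 to G3BP1 overlapped the next, as FMR1 and ATXN2 did at the bottom. With the shRNA, ATXN2L moved from the third place to the fifth in HEL, where its libraries overlapped those of G3BP1. With the length of the longest coding transcript, a measure chosen after seeing the data, CAPRIN1 stayed first in all 4 groups and ATXN2 and FMR1 the 2 lowest, but the order between them shifted. In HEL control libraries G3BP1 went from place 6 to 8, USP10 from 4 to 3 and ATXN2L from 3 to 4, so that ATXN2L moved from place 4 to 5 with the shRNA.

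**Figure D3:**
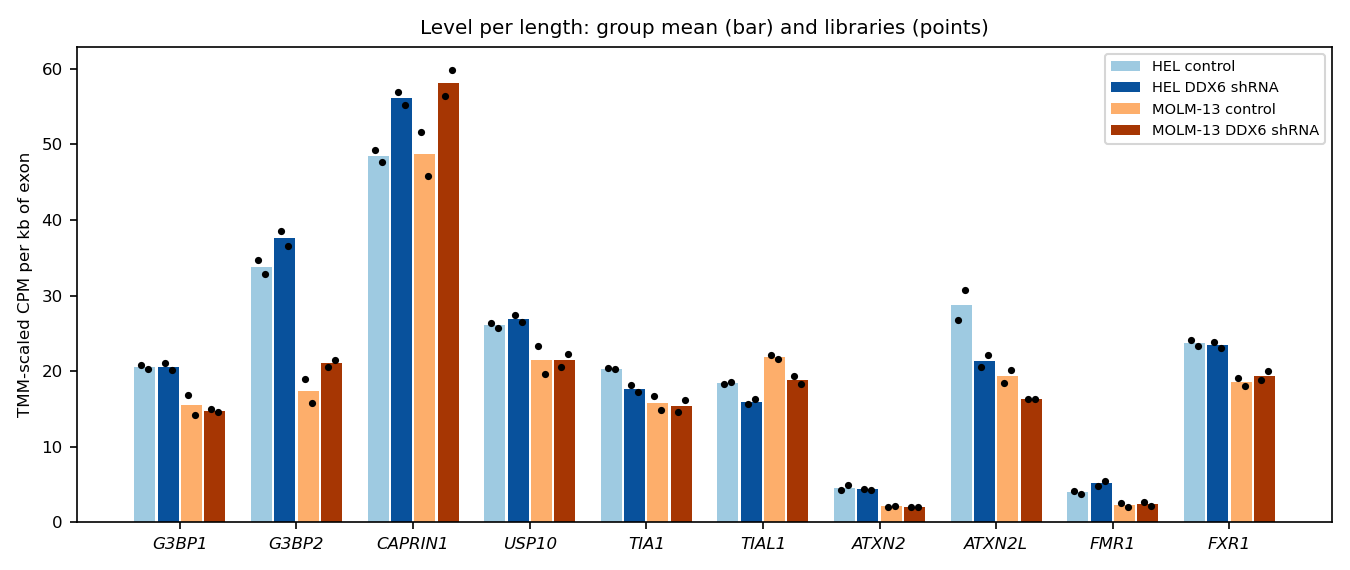
TMM-scaled CPM per kb of annotated exon (vertical axis, from 0) of each core gene, with bars for group means and points for the 2 libraries of each group. CAPRIN1 bars stand at 48.5 to 58.1, above every other gene, and ATXN2 and FMR1 libraries lie between 2.02 and 5.45.

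The balance between related members was read from ratios of their counts within each library, which do not depend on scaling between libraries. They are described without a test, and how often the groups lie apart for other gene pairs was not measured. Counts of G3BP2 per count of G3BP1 were 0.962 and 0.938 in HEL control libraries and 1.06 and 1.05 with the shRNA, and 0.648 and 0.644 against 0.796 and 0.851 in MOLM-13. The share of G3BP2 was thus higher with the shRNA in every library of both lines. CAPRIN1 per G3BP1 likewise stood at 1.46 in each HEL control library and 1.68 and 1.70 with the shRNA, and at 1.90 and 1.99 against 2.34 and 2.54 in MOLM-13. USP10 per G3BP1 was 0.518 and 0.520 in HEL control libraries and 0.533 and 0.540 with the shRNA, apart by little. In MOLM-13 it was 0.565 and 0.563 against 0.564 and 0.623, where the groups overlapped.

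ATXN2L per ATXN2 was 2.48 and 2.46 in HEL control libraries and 1.82 and 2.02 with the shRNA, and 3.53 and 3.69 against 3.202 and 3.162 in MOLM-13. The groups were apart in both lines, lower with the shRNA. FXR1 per FMR1 was 7.79 and 8.27 in HEL control libraries and 6.62 and 5.74 with the shRNA, but 10.1 and 12.1 against 9.25 and 12.5 in MOLM-13, where the groups overlapped. TIAL1 per TIA1 overlapped in HEL, at 0.999 and 1.02 against 0.965 and 1.05. In MOLM-13 it was 1.476 and 1.613 in control libraries and 1.466 and 1.257 with the shRNA. Those groups barely separated, and the libraries within each group lay further apart than the nearest libraries of the 2 groups.

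**Figure D4:**
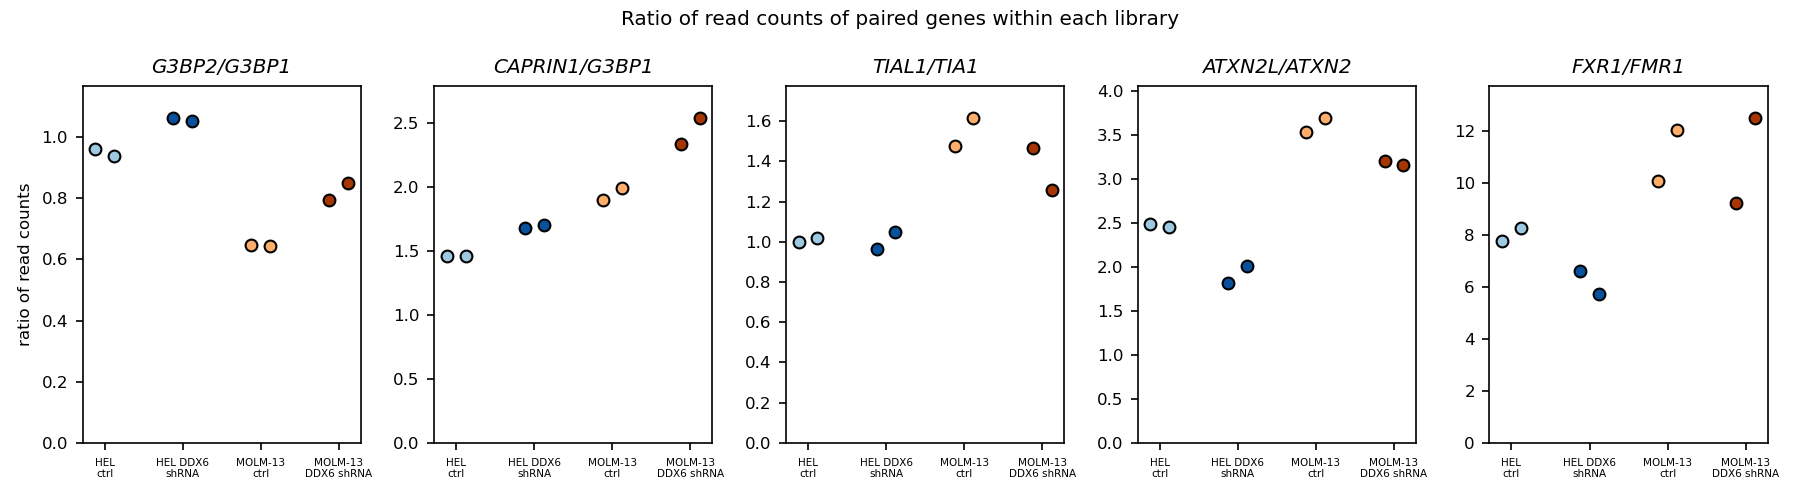
Ratio of read counts of 2 related core genes within each library (vertical axis, from 0), with 2 points for the libraries of each group. Each gene pair has 1 panel except USP10/G3BP1, which is not drawn. G3BP2/G3BP1 and CAPRIN1/G3BP1 are higher and ATXN2L/ATXN2 lower with the DDX6 shRNA in both lines, and FXR1/FMR1 groups overlap in MOLM-13.

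Genes that work with the core proteins were read in 4 lists, chosen with earlier results of these data known. Their shares are described without a test of the lists. Of 43 other RNA-binding proteins of stress granules, 4 rose and 13 fell in HEL and 4 rose and 12 fell in MOLM-13. That is 9.3% higher and 30.2% lower in HEL, against 20.7% and 14.1% of all tested genes, and 9.3% higher and 27.9% lower in MOLM-13, against 18.1% and 14.3%. In either direction 39.5% were called in HEL and 37.2% in MOLM-13. These shares were 34.8% and 32.4% over all tested genes and 46.3% and 43.1% over the 6804 abundant ones. Shares by direction over the abundant genes were not computed, so the lean towards falls is set against all tested genes only. The median log2 fold changes were -0.10 and -0.07, against 0.03 and 0.00 over all tested genes. DDX1, an RNA helicase, rose in both lines, 7 genes fell in both (PRRC2A, PABPC1, EWSR1, TAF15, HNRNPA1, RACK1 and PURA), and YBX3 went opposite ways. TAF15, an RNA-binding protein that also acts in transcription, fell from 337 ± 6.85 to 183 ± 4.02 CPM (SD, n = 2) in HEL, a log2 fold change of -0.88 ± 0.06, and from 334 ± 8.02 to 186 ± 1.60 CPM in MOLM-13, at -0.85 ± 0.07. PABPC1, the main cytoplasmic poly(A)-binding protein and a partner of ataxin-2, fell by 0.46 on the log2 scale in HEL and by 0.20 in MOLM-13. HNRNPA1, a splicing factor that enters granules under stress, fell by 0.33 and 0.57 on the same scale. DDX3X, a helicase of translation initiation, rose by 0.46 ± 0.07 in HEL and was at 0.16 ± 0.08 without passing in MOLM-13 (edgeR adjusted p = 0.1003). CELF1, a regulator of splicing and mRNA decay, fell in MOLM-13, at -0.38 ± 0.09. Over the alternatives, the counts ran from 2 to 4 higher and 8 to 23 lower in HEL and from 1 to 9 higher and 5 to 13 lower in MOLM-13. Of the genes called in both lines, TAF15 and HNRNPA1 were called in both under every alternative run. PABPC1 was lost in MOLM-13 without shRNA replicate 1 and YBX3 there without shRNA replicate 2. DDX1 was lost in MOLM-13 under 12 of 17 alternatives and in HEL without control replicate 2. PRRC2A, EWSR1, RACK1 and PURA were each lost in at least 1 line, under 1 to 8 alternatives.

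Among 17 genes for eIF2 kinases, eIF2, its exchange factor eIF2B and the eIF2α phosphatase, which control whether initiation stalls, 5 rose and 4 fell in HEL and 2 rose and 2 fell in MOLM-13 (median log2 fold changes 0.04 and -0.04). The shares called in either direction were 52.9% and 23.5%, against 34.8% and 32.4% of all tested genes and 46.3% and 43.1% of the abundant ones. EIF2S3, the γ subunit of eIF2, and PPP1R15B, the constitutive regulatory subunit of the eIF2α phosphatase, fell in both lines. PPP1R15B went from 80.1 ± 1.33 to 57.4 ± 0.611 CPM in HEL, at -0.48 ± 0.08, and from 54.7 ± 1.83 to 37.0 ± 1.5 CPM in MOLM-13, at -0.57 ± 0.10. The kinases EIF2AK2 and EIF2AK4 rose in MOLM-13, by 0.38 ± 0.11 and 0.34 ± 0.09. EIF2S1, the α subunit that the kinases phosphorylate, rose in HEL by 0.32 ± 0.07 and stood at -0.13 ± 0.09 without passing in MOLM-13 (edgeR adjusted p = 0.272). EIF2S3 and PPP1R15B were called in both lines under every alternative run, and EIF2AK2 was lost without MOLM-13 control replicate 2 (edgeR adjusted p = 0.197). Over the alternatives, 1 to 5 rose and 2 to 6 fell in HEL, and 2 to 3 rose and 2 to 5 fell in MOLM-13.

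A further list held 21 genes of eIF3, eIF4F and other eIF4 factors, where eIF3 and eIF4F are held on stalled mRNAs in granules. Of these genes, 6 rose and 5 fell in HEL and 4 rose and 3 fell in MOLM-13 (median log2 fold changes 0.07 and 0.02). The shares called in either direction, 52.4% and 33.3%, stand against 34.8% and 32.4% of all tested genes and 46.3% and 43.1% of the abundant ones. EIF3I, EIF4G1 and EIF4G2 rose in both lines, and EIF3F and EIF4B fell in both. EIF4G1, the scaffold of eIF4F, rose from 668 ± 10.4 to 869.8 ± 9.11 CPM in HEL, at 0.38 ± 0.06, and from 575 ± 19.5 to 701 ± 18.9 CPM in MOLM-13, at 0.29 ± 0.06. EIF4B, a cofactor of the eIF4A helicase, fell from 756 ± 22.0 to 477 ± 19.6 CPM in HEL, at -0.66 ± 0.06, and from 808 ± 20.4 to 663 ± 5.34 CPM in MOLM-13, at -0.29 ± 0.06; exons of an opposite-strand gene cover 11.9% of its exon bases. EIF4G1 and EIF4B were called in both lines under every alternative run. In MOLM-13 EIF4G2 was lost with the line alone (edgeR adjusted p = 0.0535) and without control replicate 2. EIF3F was lost there under 8 of 17 alternatives and EIF3I under 5 of 17, and EIF3I was also lost under 2 of 16 in HEL. Over the alternatives, 3 to 7 rose and 3 to 7 fell in HEL, and 2 to 5 rose and 1 to 3 fell in MOLM-13.

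Of 24 tested genes of granule clearance and modification, 11 rose and 3 fell in HEL and 5 rose and 4 fell in MOLM-13 (median log2 fold changes 0.18 and -0.05), and HSPB8 was not tested because of low counts. The shares were 45.8% higher and 12.5% lower in HEL, against 20.7% and 14.1% of all tested genes, and 20.8% higher and 16.7% lower in MOLM-13, against 18.1% and 14.3%. In either direction 58.3% were called in HEL and 37.5% in MOLM-13. These shares were 34.8% and 32.4% over all tested genes and 46.3% and 43.1% over the abundant ones, for which shares by direction were not computed. VCP, the ATPase that takes part in granule clearance, USP5, a deubiquitinase, the chaperone HSPA8, its cochaperone BAG3 and the autophagy receptor SQSTM1 rose in both lines, and no gene of the list fell in both; over all tested genes 8.15% rose and 5.43% fell in both. SQSTM1 went from 96.8 ± 1.38 to 149 ± 2.83 CPM in HEL, at 0.62 ± 0.07, and from 115 ± 2.29 to 164 ± 2.59 CPM in MOLM-13, at 0.51 ± 0.07, with 22% of its exon bases overlapped on the opposite strand. VCP rose by 0.34 ± 0.06 in HEL and 0.17 ± 0.06 in MOLM-13. ZFAND1, which recruits VCP to arsenite-induced granules, fell in HEL, at -0.54 ± 0.08, and stood at -0.08 ± 0.08 without passing in MOLM-13 (edgeR adjusted p = 0.471). HSPA1B, a heat-shock protein, fell in MOLM-13, at -0.89 ± 0.16, but shares most of its sequence with HSPA1A, so the split of reads between them is uncertain. SQSTM1 was called in both lines under every alternative run, and in MOLM-13 HSPA8 was lost with the line alone (edgeR adjusted p = 0.0710), USP5 under 4 of 17 alternatives, BAG3 under 6 and VCP under 10; USP5 was also lost under 4 of 16 in HEL. Over the alternatives, 8 to 11 rose and 1 to 5 fell in HEL, and 1 to 6 rose and 2 to 5 fell in MOLM-13.

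**Figure D5:**
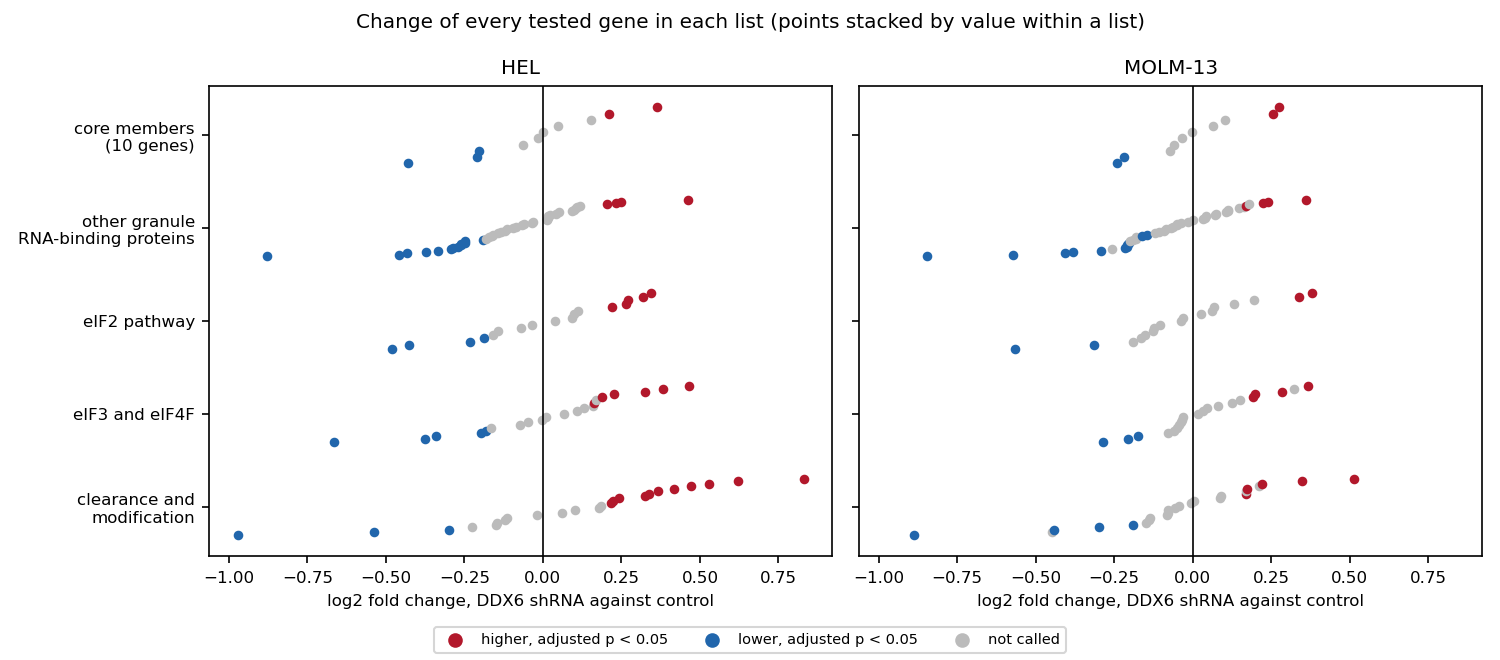
Log2 fold change with the DDX6 shRNA against control (horizontal axis) of every tested gene of the core set and the 4 lists in HEL (left) and MOLM-13 (right), 1 point for each gene, coloured by call. The core genes lie between -0.43 and 0.36 in HEL and between -0.24 and 0.28 in MOLM-13, inside the range of each of the 4 lists on the lower side.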

How the data were processed

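The deposited values are whole-number gene counts, not normalized, in 1 table for each line. The submitters' processing notes name GRCh38, STAR, DESeq2 and SAMtools 1.12; how reads were counted, with which annotation and strand setting, is not given in the sources used here. Per the labels, extraction used miRNeasy Micro and library construction used NEBNext Ultra II RNA. Columns were matched to samples by line, shRNA and replicate number, with 0 columns unused; a hairpin number stands in HEL column names but not in titles. Of 61544 entries, 1348 share a symbol with another, none of them a core gene.

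From these counts, edgeR 4.0.16 (R 4.3.3) was run with filterByExpr (minimum count 10, 16499 genes), TMM scaling and 1 quasi-likelihood model of all 8 libraries and 4 groups (4 residual and a median of 40 prior degrees of freedom), after the steps were tested on simulated data. The SE is the log2 fold change over the square root of F. The core genes and lists were chosen with earlier results of these data known. Named genes were DDX6, the 10 core genes, up to 3 called genes per list, line and direction with the smallest adjusted p and at least 5 CPM, and genes called in both lines; other list genes and those set beside a call in the other line were named after their values were seen. Some genes that the rule names are not reported here. Alternatives were RLE, upper-quartile and total-count scaling, DESeq2 1.42.0, no filter, a filter of 50 counts over the 8 libraries, each line alone, a replicate block and leaving out each library. Coordinates, lengths and overlaps come from GENCODE 29 (GRCh38), and promoters from RefSeq. At this depth 3 counts in a library are 0.248 to 0.380 CPM, and the intervals of the fits rest on 2 libraries a group.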

Additional observations from a re-analysis of the deposited data

Results flagged for a closer look

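Of the 105 tested list genes, 23 changed differently between the lines with the DDX6 shRNA, and of all 16499 tested genes 2495 did (15.1%). This was edgeR's test of the difference itself (MOLM-13 change minus HEL change, adjusted p under 0.05). They were 8 of 43 granule RNA-binding proteins (18.6%), 2 of 17 eIF2 genes (11.8%), 5 of 21 eIF3 and eIF4 genes (23.8%) and 8 of 24 clearance genes (33.3%). Abundant genes are called more often, and their share for this difference was not computed. Of the 23, 5 were called under every alternative run: YBX3, EIF2S1, EIF4B, TRIM21 and NPLOC4. The 16 whose differences are given here, without NPLOC4, were named because they were among the strongest calls within a line. Their number is therefore not compared with the share over all genes. DDX3X and EIF3G were each lost under 10 of 15 alternatives, and EIF4G2 under 7. STAU2, HNRNPA1 and CSNK2B were each lost under 6, and EIF3L under 5. PABPC1, EIF2AK4, ZFAND1, ULK1 and HSPA1B were each lost under 1 or 2. None of the 10 core genes passed the test of the difference. Of the granule RNA-binding proteins, the difference on the log2 scale was 0.26 for PABPC1, which fell more in HEL, and 0.38 for STAU2, which passed in MOLM-13 alone. It was 0.47 for YBX3, which fell in HEL and rose in MOLM-13, -0.30 for DDX3X, which passed in HEL alone, and -0.24 for HNRNPA1, which fell more in MOLM-13. Of the initiation genes, it was 0.41 for EIF2AK4, -0.45 for EIF2S1, -0.29 for EIF3G, 0.30 for EIF3L, 0.38 for EIF4B and -0.26 for EIF4G2. EIF4B fell and EIF4G2 rose in both lines, each by more in HEL, and other genes cover 51.8% of the exon bases of EIF3L. Of the clearance and modification genes, it was 0.46 for ZFAND1, -0.63 for ULK1, -0.74 for HSPA1B, -0.48 for CSNK2B and -0.59 for TRIM21. Exons of other genes cover 37.1% of the exon bases of CSNK2B and 36.5% of those of HSPA1B, which also shares most of its sequence with HSPA1A. Markers of other cell types rose in MOLM-13 with the shRNA, as given for CD3D and PECAM1 in the marker sums, and their part in these differences was not tested. Whether both lines received the same hairpin is not known, so line and hairpin cannot be told apart here.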

How the results depend on the processing

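Leaving out 1 library changed the number of core genes called from 5 to between 1 and 6 in HEL, from 4 to between 1 and 4 in MOLM-13, from 0 to between 0 and 2 for the difference and from 9 to between 9 and 10 for the controls, and the number of all genes called to 3723 to 6771 (5739 in the fit as reported), 3664 to 5262 (5339), 1511 to 3238 (2495) and 12699 to 13917 (13398). DESeq2 called 3517 genes in HEL (2169 higher, 1348 lower) and 3 core genes there, and 1377 for the difference (749 higher, 628 lower). With each line fitted alone, 6875 genes were called in HEL with 6 core genes, and 4625 in MOLM-13 with 4. The groups share replicate numbers, but nothing says that these pair the libraries: deviations of same-numbered libraries correlated at 0.173 in HEL and -0.283 in MOLM-13 over 8260 genes. With the replicate block, 5253 genes were called in HEL with 4 core genes, TIA1 being lost (edgeR adjusted p = 0.0516), 4927 in MOLM-13 with 4 and 2106 for the difference with 0. A crossed block in MOLM-13, chosen after seeing the data, called 6192 genes and 4 core genes. No called core gene changed sign in any alternative. Values near 0 that were not called did: G3BP1 in HEL was -0.00143 with RLE, -0.0320 with upper-quartile, -0.0388 with total-count scaling, -0.00144 in DESeq2, -0.00494 without a filter and -0.0338 with the line alone; USP10 in MOLM-13 was 0.0106 with RLE, 0.0105 in DESeq2, 0.000183 with the 50-count filter, 0.00164 with the replicate block and 0.000603 with the crossed block. The difference was 0.00383 with RLE, 0.0166 with upper-quartile scaling and 0.00380 in DESeq2 for TIAL1, and -0.000488 with total counts for ATXN2; CAPRIN1 between the controls was 0.0109 with RLE and in DESeq2, 0.0920 with total counts and 0.0346 without a filter. Over single libraries left out, the log2 values ran from -0.165 to 0.0423 (ATXN2), -0.0522 to 0.0129 (FXR1) and -0.0349 to 0.0352 (G3BP1) in HEL; from -0.0615 to 0.288 (FMR1), -0.180 to 0.0616 (G3BP1), -0.103 to 0.0570 (TIA1) and -0.110 to 0.136 (USP10) in MOLM-13; from -0.101 to 0.106 (ATXN2), -0.145 to 0.0961 (G3BP1), -0.0338 to 0.0700 (TIAL1) and -0.123 to 0.123 (USP10) for the difference; and from -0.0433 to 0.127 (CAPRIN1) between the controls. Of the 105 tested list genes, 51 were called in HEL, 27 of them under every alternative run, and 36 in MOLM-13, 12 of them under every alternative; of the counts of list genes called, 87 moved by over 1.5 times and 297 did not. The cause of these changes was not tested. Upper-quartile and total-count scaling moved the median of all genes between the controls by -0.12 and 0.10. With total counts 47.5% of MOLM-13 calls were higher, against 55.8%. In HEL 52.0% of calls were higher with total counts and with the line alone, against 59.5% in the fit as reported.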
